A study of Homo sapiens with 12 samples.

Results

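The 38 genes described here are the HOX cluster genes with a row in a table of estimated counts for 35984 genes, chosen by symbol alone (HOX, a cluster letter from A to D, and a number). HOXC8 was not analysed here. Transcripts were measured by RNA sequencing of total RNA in HepG2, an established human hepatoma cell line. The control line (CTL) carried control shRNAs, and the double knock-down line (DKD) carried shRNAs that target macroH2A1 and macroH2A2, both stably integrated with a retroviral vector. macroH2A proteins are histone H2A variants that carry a large extra domain. Each line was starved of serum overnight and then kept for 24 hours with the inflammatory cytokine TNFα (20 ng/mL) or with its carrier alone (untreated). The 4 groups of 3 libraries were CTL untreated, CTL with TNFα, DKD untreated and DKD with TNFα. Separate cultures are not named in the labels, so p-values reflect the spread between libraries alone, and that spread may be technical. Nor do the labels tell whether a line was one pool of transduced cells, so a difference between the lines and an effect of the knock-down cannot be told apart.

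HOX genes encode homeodomain transcription factors that give cells their position along the head-to-tail axis of the embryo. They lie in 4 clusters, and within a cluster the order of the genes follows the order in which they are used along the axis. Polycomb complexes keep unused HOX genes silent and trithorax complexes keep active ones on, so that adult cells hold a HOX pattern that mirrors the origin of their tissue. macroH2A is a histone variant found in silent chromatin, and HOX clusters are among the regions where it has been studied.

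HepG2 cells expressed a short run of HOXA genes, little of HOXC and HOXD, and almost nothing of HOXB. Levels are given as CPM, counts scaled to the library total with TMM factors. A gene with a mean of at least 1 CPM over the 12 libraries is called expressed here, one with fewer counts low, and one with no count in any library undetected. By that measure 7 of the 38 genes were expressed, 21 were low and 10 were undetected. In the whole table, 29.1% of the genes were undetected. All HOX genes together had 41.6 to 59.1 CPM by library total, 24052 counts in all. A count of 0 over the 12 libraries allows a level of up to 0.00624 CPM, which covers counting error only.

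The HOXA cluster (chromosome 7) held 75.7% of the HOX counts. HOXA3, HOXA4, HOXA5 and HOXA6, which stand side by side, were its 4 expressed genes. HOXA3, which patterns the pharyngeal organs such as thymus and parathyroid, was the most abundant HOX gene, with a mean of 21.8 CPM. HOXA4 followed with 5.76 CPM, HOXA5 with 5.48 and HOXA6 with 2.23. Per kilobase of annotated exon the order was the same, at 5.07 CPM for HOXA3, 3.30 for HOXA4, 3.21 for HOXA5 and 1.73 for HOXA6. The order of HOXA4 and HOXA5 per kilobase depended on the group. HOXA4 was the higher of the pair in all 6 untreated libraries and in 2 of 3 CTL libraries with TNFα, and HOXA5 in all 3 DKD libraries with TNFα (3.84 ± 0.213 against 2.74 ± 0.354 CPM per kilobase, SD, n = 3). The run ended abruptly. HOXA7, the next gene after HOXA6, had 10 counts over all 12 libraries against 1072 for HOXA6. HOXA9 had 53 counts, and HOXA2, HOXA10, HOXA11 and HOXA13 had means of 0.228 to 0.883 CPM.

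The HOXB cluster (chromosome 17) gave 0.890% of the HOX counts. HOXB1, HOXB2, HOXB3, HOXB4, HOXB5, HOXB6, HOXB8 and HOXB9 were listed at 0 in every library. HOXB7 alone was counted in all 12, with 203 counts and 0.216 to 0.699 CPM, and HOXB13 had 11 counts. The HOXC cluster (chromosome 12) gave 10.2%. HOXC9, a gene of the trunk region that specifies thoracic motor neurons in the embryo, was its 1 expressed gene, at 3.03 CPM (2.40 to 4.10). HOXC6 lay just under the limit at 0.993 CPM, HOXC11 was undetected, and HOXC12 had 3 counts. The HOXD cluster (chromosome 2) gave 13.3%, nearly all from 2 genes at its 3′ end, HOXD1 (3.97 CPM) and HOXD4 (2.29 CPM). HOXD4 was expressed through 3 of the groups, with a mean of 0.741 CPM in CTL untreated and up to 5.17 in DKD with TNFα. Per kilobase of exon HOXD1 stood at 2.01 CPM and HOXD4 at 1.56 over all libraries. On that scale HOXD1 was the higher of the pair in all 6 CTL libraries and HOXD4 in all 6 DKD libraries. The DKD margins were small: HOXD1 had 1.15 ± 0.359 and HOXD4 1.43 ± 0.171 CPM per kilobase untreated (SD, n = 3), and 2.85 ± 0.757 and 3.53 ± 0.0784 with TNFα. They depend on the exon lengths used. In plain CPM HOXD1 was the higher in DKD replicates 1 and 2 untreated and in replicates 2 and 3 with TNFα. HOXD4 was the higher in DKD replicate 3 untreated and replicate 1 with TNFα. The DKD group means in plain CPM were 2.27 for HOXD1 and 2.09 for HOXD4 untreated, and 5.63 and 5.17 with TNFα. HOXD8 was undetected, and HOXD9, HOXD10, HOXD11, HOXD12 and HOXD13 had 2 to 36 counts each.

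**Figure D1:**
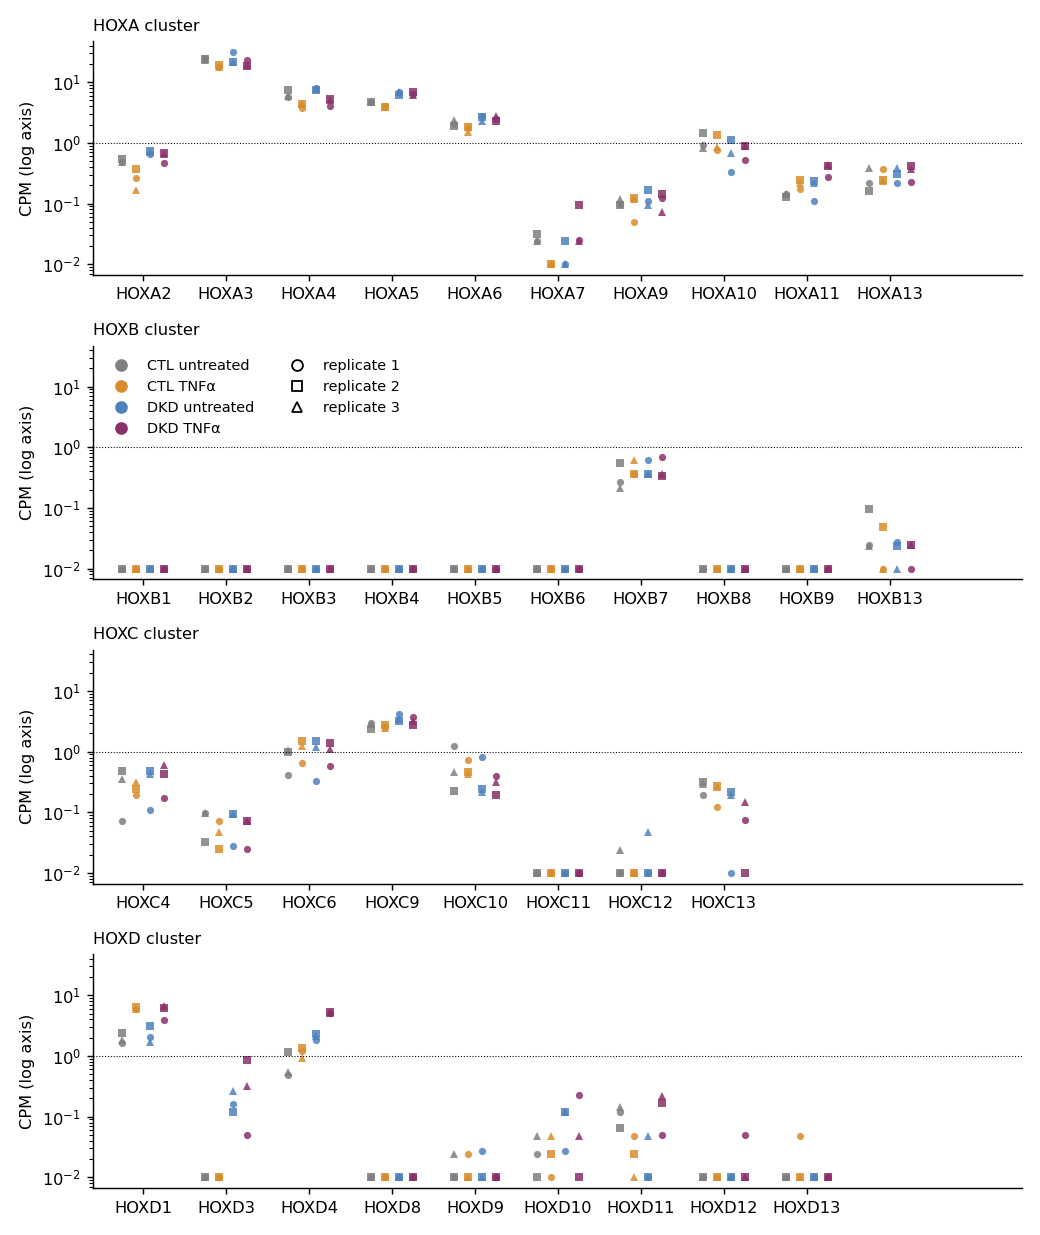
CPM (log axis) of 37 HOX genes in each of the 12 libraries, in order along each cluster; colours are the 4 groups, marker shapes the replicate numbers, the dotted line is 1 CPM, and libraries with no count are drawn at 0.01. The expressed genes are HOXA3 to HOXA6, HOXC9, HOXD1 and HOXD4, and 8 of the 10 HOXB genes lie at the bottom in every library.

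Before the comparisons, the labels and libraries were checked. MACROH2A1 kept 19.6% of its control level in untreated and 20.7% in TNFα-treated DKD cells, and MACROH2A2 8.83% and 8.55%, with no overlap between CTL and DKD libraries. All 9 hepatocyte markers examined were detected above the filter on low counts. Their sum was 22110 to 23871 CPM in CTL untreated and 27412 to 40703 in DKD untreated. With TNFα it was 17686 to 19609 CPM in CTL and 20826 to 27497 in DKD. ALB, the albumin gene, ran from 213 to 8434 CPM over the libraries. Together 6 fibroblast markers reached at most 1.83 CPM, 4 endothelial markers 2.49 and 3 neural markers 0.901, and CD3E, a T cell marker, was at 0. LYZ, the lysozyme gene and the bulk of a 5-gene leukocyte list, rose with TNFα and took that list from 351 to 532 CPM untreated to 945 to 1247 CPM treated. The replicate 1 libraries of the DKD line stood apart from the other 10 on the first principal component (-83.7 and -53.9 against -18.2 to 41.5). Genes of chromosome 2, where HOXD lies, were also shifted between the lines. Over 1006 tested genes of chromosome 2 outside HOXD, the median log2 difference between DKD and CTL was 0.25, and 73.1% of them were higher in DKD. The medians of the other 22 chromosomes lay between -0.07 (chromosome 10) and 0.02 (chromosome X).

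HOXD1, HOXD3 and HOXD4 changed in partly different comparisons. HOXD1 and HOXD4 were both called higher with TNFα averaged over the lines. In DKD cells their TNFα effects were of like size (log2 1.31 and 1.30), though only that of HOXD1 was called. HOXD1 rose with TNFα in both lines and HOXD4 was higher in DKD cells under both conditions, highest with TNFα. HOXD3, which lies between them, was counted in DKD libraries alone. Summed over the cluster, HOXD transcripts went from 2.83 ± 0.727 CPM (SD, n = 3) in CTL untreated to 7.27 ± 0.407 in CTL with TNFα, 4.66 ± 0.852 in DKD untreated and 11.5 ± 1.74 in DKD with TNFα. HOXD1 made up 69.4% and 83.2% of that sum in the CTL groups and 48.1% and 48.5% in the DKD groups. HOXD4 made up 25.1% and 15.8% in CTL and 45.3% and 45.8% in DKD.

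HOXD1 is the gene at the 3′ end of the cluster, the end whose genes are used nearest the head. Its levels in replicates 1, 2 and 3 were 1.63, 2.40 and 1.82 CPM in CTL untreated and 5.90, 6.30 and 5.93 in CTL with TNFα. In DKD cells they were 2.02, 3.07 and 1.72 CPM untreated and 3.92, 6.29 and 6.68 with TNFα. Every TNFα library lay above every untreated library of its line, and the lowest TNFα value was that of DKD replicate 1. The mean rose 3.10-fold in CTL cells (log2 1.63, SE 0.27, adjusted p = 0.00819) and 2.48-fold in DKD cells (log2 1.31, SE 0.26, adjusted p = 0.0311). In CTL cells HOXD1 was the 1 HOX gene called, against 1.9% of all 16118 genes tested that were called higher and 0.726% lower. Each adjusted p is from edgeR's quasi-likelihood test with Benjamini-Hochberg adjustment over those genes, and a gene is called at an adjusted p under 0.05. Without CTL untreated replicate 3, the call in CTL cells was lost (adjusted p = 0.0644). In DKD cells the call was kept when any of CTL untreated replicates 1 and 2, DKD untreated replicate 2 or DKD TNFα replicate 1 was left out and lost without any of the other 8 libraries, with adjusted p between 0.0124 and 0.157. Over 18 alternative runs HOXD1 was called there in 9, among them the fit with the replicate numbers as a block (adjusted p = 0.00298). Averaged over both lines it was called without any single library. HOXD1 levels of the lines overlapped under both conditions, and the knock-down effect averaged over treatments was 0.06 on the log2 scale (SE 0.18, adjusted p = 0.879), 0.19 under the chromosome 2 median.

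HOXD4, a gene that patterns the hindbrain and upper neck vertebrae, had 0.486, 1.19 and 0.552 CPM in the CTL untreated libraries and 1.22, 1.34 and 0.912 with TNFα. In the DKD libraries it had 1.83, 2.33 and 2.12 CPM untreated and 5.17, 5.28 and 5.05 with TNFα. All 6 DKD libraries lay above all 6 CTL libraries, and the TNFα libraries of DKD lay above all others. The knock-down difference was 2.83-fold untreated (log2 1.52, SE 0.31, adjusted p = 0.0153) and 4.46-fold with TNFα (log2 2.16, SE 0.30, adjusted p = 0.00159). Leaving out CTL untreated replicate 1 or 3 or DKD untreated replicate 2 ended the untreated call (adjusted p = 0.0629, 0.0834 and 0.0575), whereas the call with TNFα was kept without any single library. From CTL untreated to DKD with TNFα the mean rose 6.97-fold, which was not tested as a comparison of its own.

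TNFα raised HOXD4 when averaged over the lines (log2 0.98, SE 0.21, adjusted p = 0.0172). That call was lost without CTL untreated replicate 3, CTL TNFα replicate 2 or DKD TNFα replicate 2 (adjusted p = 0.0599, 0.0598 and 0.05003). Within DKD cells the difference was 1.30 (SE 0.29, adjusted p = 0.0502, and 0.00534 with the replicate numbers as a block). Within CTL cells it was 0.66 (SE 0.31, adjusted p = 0.375), with overlapping groups. The 2 effects were not shown to differ: the interaction was 0.64 on the log2 scale (SE 0.42, unadjusted p = 0.158). TNFα and knock-down comparisons share libraries, so their values for a gene are not independent.

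HOXD3, the neighbour that patterns the upper neck with HOXD4, had no count in any of the 6 CTL libraries. DKD replicates 1, 2 and 3 had 6, 5 and 11 counts untreated and 2, 36 and 13 with TNFα. All 6 DKD libraries were thus above 0, and DKD TNFα replicate 2 alone held 36 of the 73 counts. With a floor of 3 counts over the CTL group, the pooled DKD counts lay 6.93-fold above that floor untreated and 17.1-fold above it with TNFα. The floor allows for the CTL zeros alone and not for the spread of the DKD libraries. The floor pooled over the CTL libraries with TNFα was 0.0243 CPM. In DKD TNFα replicate 1 alone 3 counts make 0.0749 CPM, and its 0.0499 CPM lay below that. HOXD3 passed the filter on low counts only through the DKD groups, so its tests are no support for a difference. Their p-values are not given. In the model without the block HOXD3 was called averaged over treatments and in neither condition alone. With the block or with no filter it was also called with TNFα.

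In GENCODE 29 (GRCh38), HOXD4 (chromosome 2, 176151222 to 176153226) lies inside an intron of the HOXD3 gene model (176136612 to 176173102), and their exons do not overlap. An unnamed coding model on the same strand, AC009336.2, covers 80.5% of the exon bases of HOXD4 and 62.2% of those of HOXD3. A model on the other strand covers 50.1% of HOXD1. With the annotation and strand setting behind the counts not given in the sources used here, reads of these overlapping models cannot be told apart.

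**Figure D2:**
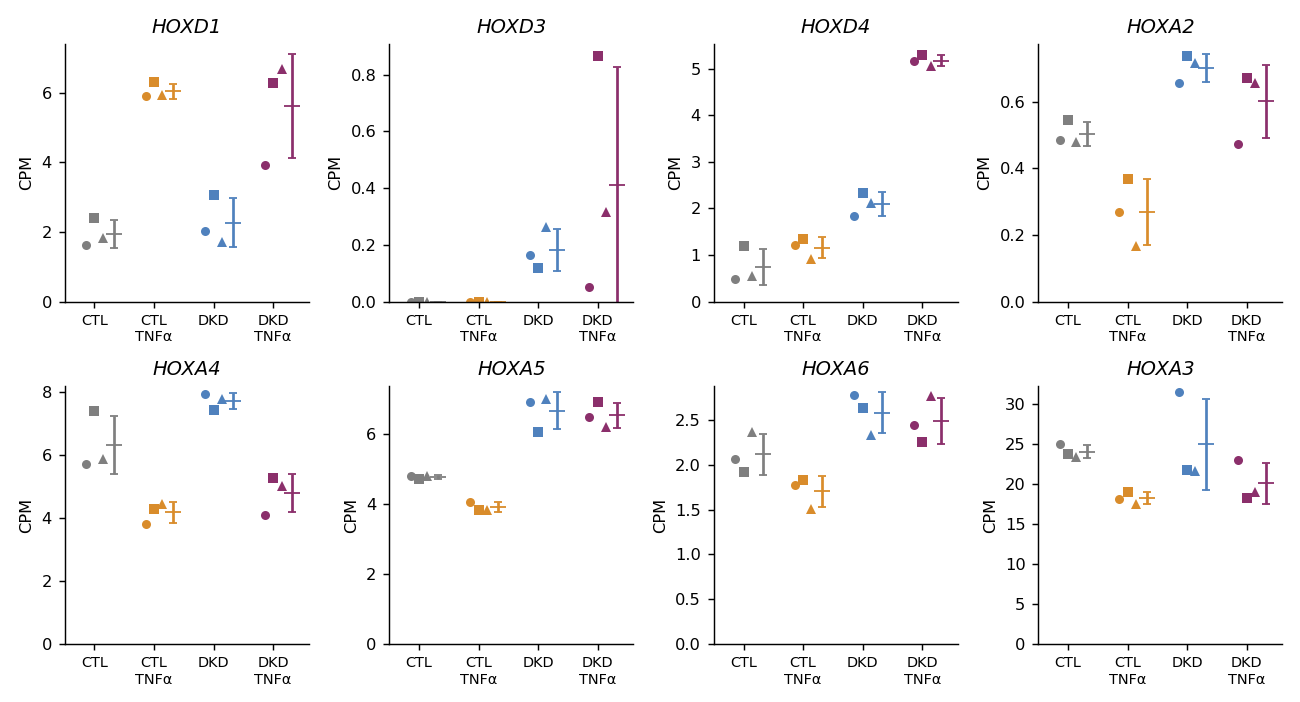
CPM of HOXD1, HOXD3, HOXD4, HOXA2, HOXA4, HOXA5, HOXA6 and HOXA3 in every library (circle, square and triangle for replicates 1, 2 and 3), with the mean and SD of each group beside its points; each panel has its own axis from 0. HOXD4 reaches 5.05 to 5.28 CPM in the TNFα-treated DKD libraries and at most 2.33 elsewhere, while HOXD1 is high in both TNFα groups.

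Stretches of the promoter windows are printed for HOXD1, which rose with TNFα, and for HOXD3, counted in DKD cells alone. They come from RefSeq promoter windows on GRCh38, plus strand, 5′ to 3′: chr2:176188418-176188578 for HOXD1, which ends at the base before its GENCODE start, and chr2:176157057-176157306 for HOXD3. Capitals mark GC boxes (GGGCGG on either strand, CCGCCC as printed), a CCAAT box (printed ATTGG, on the other strand) and a homeodomain core (TAATTA).
HOXD1: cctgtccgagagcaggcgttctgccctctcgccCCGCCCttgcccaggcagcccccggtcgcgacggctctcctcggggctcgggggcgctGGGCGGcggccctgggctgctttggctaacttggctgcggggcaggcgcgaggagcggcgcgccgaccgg
HOXD3: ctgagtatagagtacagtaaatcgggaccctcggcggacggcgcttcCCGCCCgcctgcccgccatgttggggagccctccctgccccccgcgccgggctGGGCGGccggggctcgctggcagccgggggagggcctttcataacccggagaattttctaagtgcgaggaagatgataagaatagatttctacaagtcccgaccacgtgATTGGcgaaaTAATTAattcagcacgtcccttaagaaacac
Of 35116 promoter windows of the same source and length, 45% held a GC box, 34.6% a CCAAT box and 4.84% the homeodomain core, searched on both strands. The NF-kB motif, the site of the factor TNFα activates, was in 5.91% of all windows and in the window of 1 of the 20 HOX genes with a window, HOXA2, at bases -218 to -209 from the start. No match in the other windows, those of HOXD1, HOXD3, HOXD4 and HOXA4 included, says only that the motif's letters are not there. The HOXD1 window held 36 CpG against a median of 14, and the HOXD4 window 4. Of the 161 bases printed for HOXD1, 160 lie in exons of HAGLR, a gene model on the other strand, and none in exons of HOXD1. The HOXD4 sequence is not printed because its window lies within exons of HOXD4 itself.

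The genes around HOXD were higher in DKD cells too. Within 5 Mb of the cluster, 43 of 46 tested genes outside HOXD had a log2 difference above 0 and 26 were called higher (56.5%, against 8.49% of all genes), with a median of 0.39 (0.48 within 2 Mb and 0.375 within 10 Mb). The nearest tested neighbours were MTX2, a mitochondrial import gene, which was higher by 0.47 (SE 0.09, adjusted p = 0.00551), and LNPK, an endoplasmic reticulum gene, with 0.39 (adjusted p = 0.0670). ATF2, a transcription factor gene 0.973 Mb away, was higher by 0.69 (SE 0.08, adjusted p = 2.54e-04). The 2 called lower, TTN and CCDC141, fell by 4.67 and 3.51, and are named here after their values were seen. None of the 46 reached the 1.84 (SE 0.21, adjusted p = 2.1e-04) of HOXD4 averaged over treatments, and 9 of the 1006 chromosome 2 genes did. HOXD4 stood 1.59 above the chromosome 2 median, and HOXD1 lay below 43 of the 46 neighbours. By library, relative to the mean of CTL untreated, the chromosome 2 median was -0.03 to 0.04 in the CTL libraries and 0.19 to 0.26 in all 6 DKD libraries. The median of the neighbours within 5 Mb was -0.105 to 0.016 in the CTL libraries. In DKD replicate 1 it was 0.217 untreated and 0.261 with TNFα, near the chromosome 2 medians of those libraries (0.223 and 0.255). In DKD replicates 2 and 3 it was 0.397 to 0.511. The difference along chromosome 2 and the knock-down cannot be told apart in this design, and its part in the HOXD values was not tested. The TNFα effect averaged over the lines had a median of -0.004 in the 46 neighbours. Their knock-down difference in TNFα-treated cells had a median of 0.428. Around the other clusters the knock-down medians within 5 Mb were 0.05 (HOXA, 46 genes), -0.04 (HOXB, 122) and -0.01 (HOXC, 182). The share called higher there was 23.9% around HOXA (11 genes, with 2 lower), 6.56% around HOXB and 4.95% around HOXC, against 7.35% of the genes of chromosome 7, where HOXA lies. The part of the HOXA neighbourhood in the HOXA values was not tested.

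**Figure D3:**
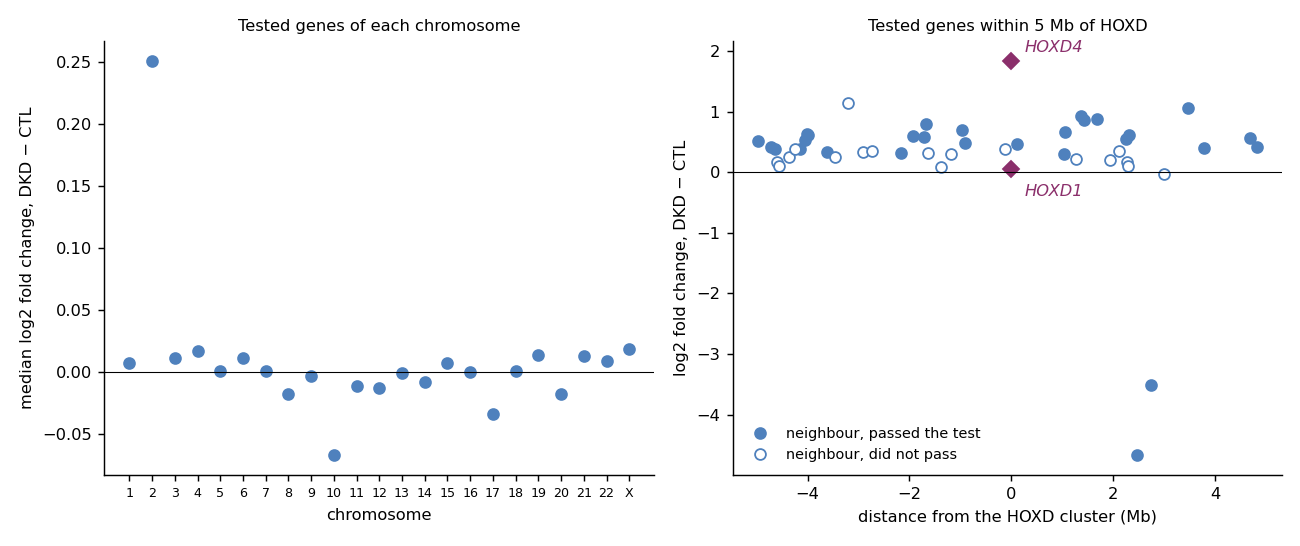
Left, median log2 difference between DKD and CTL (averaged over treatments) of the tested genes outside the HOX clusters on each chromosome; right, the same difference for single genes within 5 Mb of HOXD against their distance in Mb, filled where the adjusted p was under 0.05, with HOXD1 and HOXD4 as diamonds. Chromosome 2 stands at 0.25 and all others between -0.07 and 0.02, and HOXD4 lies above every neighbour at 1.84.

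In the HOXA cluster, HOXA5, HOXA6 and HOXA2 were higher in DKD cells averaged over treatments, by 0.41 to 0.82 on the log2 scale, and HOXA4 was lower with TNFα. HOXA5, which takes part in lung and diaphragm development, had 4.81, 4.71 and 4.80 CPM in CTL untreated and 4.07, 3.84 and 3.84 with TNFα. DKD cells had 6.94, 6.06 and 7.03 CPM untreated and 6.49, 6.94 and 6.22 with TNFα, so that all 6 DKD libraries lay above all 6 CTL libraries. With TNFα the lines differed 1.67-fold (log2 0.74, SE 0.12, adjusted p = 0.00351), a call kept without any single library. Untreated they differed 1.40-fold (log2 0.48, SE 0.12, adjusted p = 0.0409), a call lost without any one of the 12 libraries (0.0505 to 0.136). Over 18 alternative runs that call was kept in 3, the replicate block among them (adjusted p = 0.0114).

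HOXA2, a gene that patterns the hindbrain and the second pharyngeal arch, was low and also higher in DKD cells. It had 0.486, 0.545 and 0.480 CPM in CTL untreated, 0.268, 0.367 and 0.168 in CTL with TNFα, 0.656, 0.737 and 0.715 in DKD untreated and 0.474, 0.673 and 0.656 in DKD with TNFα. The lines did not overlap under either condition. With TNFα the difference was 2.25-fold (log2 1.16, SE 0.30, adjusted p = 0.0426). With single libraries left out, this call held only without CTL TNFα replicate 2 or DKD untreated replicate 1 (otherwise 0.0522 to 0.153). Over 18 alternative runs it held in 6, the replicate block among them (adjusted p = 0.0193). Averaged over treatments the difference was 0.82 (SE 0.20, adjusted p = 0.0210), a call lost without CTL untreated replicate 1 or 3, CTL TNFα replicate 1, or DKD TNFα replicate 2 or 3 (up to 0.0586). Counts of HOXA2 were 7 to 31 per library.

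HOXA6 had 2.07, 1.92 and 2.37 CPM in CTL untreated, 1.78, 1.83 and 1.51 in CTL with TNFα, 2.79, 2.64 and 2.34 in DKD untreated and 2.45, 2.26 and 2.77 in DKD with TNFα. The lines overlapped untreated and not with TNFα. Averaged over treatments HOXA6 was higher by 0.41 (SE 0.12, adjusted p = 0.0418) in DKD, a call lost without any one of the 12 libraries (0.0520 to 0.103). Over 17 alternative runs HOXA6 kept that call in 3, the replicate block among them (adjusted p = 0.0230). With TNFα alone its adjusted p was 0.0968 (0.0475 with the block). The antisense RNA HOXA-AS3 covers 39.3% of the HOXA6 exon bases.

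HOXA4, which helps set the identity of neck vertebrae, had 5.74, 7.40 and 5.88 CPM in CTL untreated and 3.80, 4.30 and 4.44 with TNFα. In DKD cells it had 7.95, 7.44 and 7.79 CPM untreated and 4.09, 5.26 and 5.03 with TNFα. Every TNFα library lay below every untreated library. Averaged over the lines HOXA4 fell by 0.64 on the log2 scale (SE 0.11, adjusted p = 0.00407), and the call was kept without any single library. Within DKD cells it fell by 0.69 (SE 0.15, adjusted p = 0.0462). With single libraries left out, that call was kept only without CTL untreated replicate 2 (otherwise 0.0589 to 0.141). Over 18 alternative runs it was kept in 4, the replicate block among them (adjusted p = 0.00681), with adjusted p up to 0.276. Within CTL cells the value was -0.60 (SE 0.15, adjusted p = 0.0673, and 0.0120 with the block). The promoter stretch of HOXA4, printed because the gene went the other way from HOXD1, is on the minus strand, chr7:27130800-27131007, with a CCAAT box (printed ATTGG) and a GC box in capitals.
HOXA4: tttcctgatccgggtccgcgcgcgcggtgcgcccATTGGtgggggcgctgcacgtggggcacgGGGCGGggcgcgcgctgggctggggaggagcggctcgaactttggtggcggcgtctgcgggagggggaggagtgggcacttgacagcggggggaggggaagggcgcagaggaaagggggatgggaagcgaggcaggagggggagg

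HOXA3 was not called in any contrast of the model without the block on all 12 libraries. It had 24.9, 23.7 and 23.4 CPM in CTL untreated, 18.1, 19.0 and 17.5 in CTL with TNFα, 31.5, 21.8 and 21.6 in DKD untreated and 23.02, 18.3 and 19.0 in DKD with TNFα. The 2 replicate 1 libraries of DKD, which stood apart in the principal components, held the highest level of their groups. Averaged over the lines the TNFα difference was -0.36 (SE 0.11, adjusted p = 0.0732). It passed the threshold with the block (adjusted p = 0.0105), in DESeq2 (0.0135), without DKD untreated replicate 1 (0.0351), without DKD TNFα replicate 1 (0.0436) and without both (-0.32, 0.00626). In CTL cells the value was -0.40 (adjusted p = 0.242), and it passed with the block (0.0442), with only the CTL libraries (0.0452), without DKD untreated replicate 1 (0.0397) and without both DKD replicate 1 libraries (0.00905).

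Over all members, 18 of the 38 passed the filter on low counts, 9 of HOXA, 1 of HOXB, 5 of HOXC and 3 of HOXD. Untreated, 2 were called higher in DKD and 0 lower, where 3.13% of all genes were called higher and 1.86% lower. With TNFα it was 3 higher and 0 lower (3.94% and 2.3% of all genes). Averaged over treatments, 4 of the 17 members other than HOXD3 were higher and 0 lower (8.49% and 6.04% of all genes). HOXD3, which passed the filter through the DKD groups alone, would make it 5 of 18. In DKD cells TNFα gave 1 call higher and 1 lower (1.54% and 0.254%), and averaged over the lines 2 higher and 1 lower (5.02% and 2.2%). The replicate block raised the knock-down calls with TNFα to 4 members, or 5 with HOXD3 counted, where it called 19.4% of all genes. In CTL cells it called 1 member higher and 2 lower, HOXA4 and HOXA3 being added, against 12.6% of all genes. For the TNFα average it called 3 higher and 2 lower, with HOXA11 (adjusted p = 0.0479) and HOXA3 added, against 21.2% of all genes. The interaction called 0 members and 0 genes (0%) in edgeR, with 0 members at an unadjusted p under 0.05, and DESeq2 called 0 members. The median log2 difference of the 18 was 0.24 for the knock-down averaged over treatments (0.23 without HOXD3) against 0.01 for all genes, and -0.06 for TNFα (-0.12 without HOXD3) against -0.005.

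No gene of HOXB or HOXC was called for the knock-down or for TNFα in the model without the block on all 12 libraries. HOXC9 had 2.92, 2.40 and 2.90 CPM in CTL untreated, 2.51, 2.76 and 2.47 in CTL with TNFα, 4.10, 3.16 and 3.43 in DKD untreated and 3.72, 2.79 and 3.16 in DKD with TNFα. The DKD libraries lay above the CTL libraries of the same treatment. The average difference was 0.35 (SE 0.12, adjusted p = 0.0845, and 0.0302 with the block). HOXC sums were 4.77 to 5.55 CPM in the 4 group means and HOXB sums 0.391 to 0.483.

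**Figure D4:**
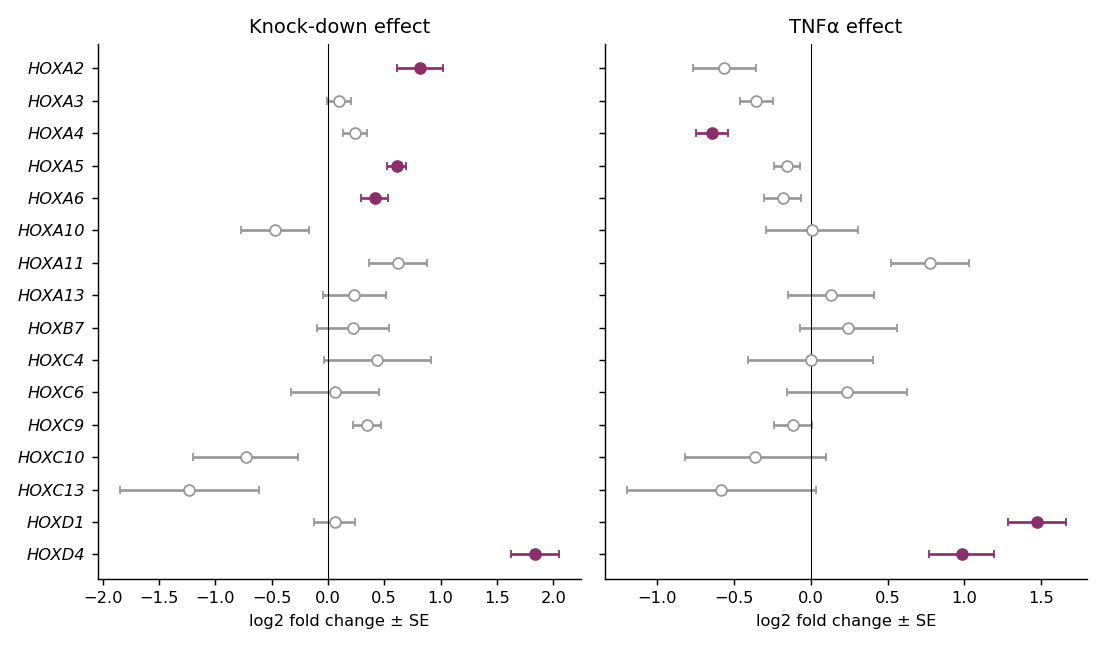
log2 fold change ± SE of 16 tested HOX genes (HOXD3 is left out because its CTL libraries are all at 0), for DKD against CTL averaged over treatments and for TNFα against untreated averaged over lines; filled points passed an adjusted p of 0.05. HOXD4 (1.84) leads the left panel and HOXD1 (1.47) the right one, where HOXA4 (-0.64) is the 1 filled point below 0.

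Genes that act with or on HOX proteins were counted from lists chosen with earlier results of these data known. For the knock-down averaged over treatments, these counts stand beside 8.49% of all genes called higher and 6.04% lower, and beside 15.8% and 15.4% with the replicate block. Of 10 cofactors of the TALE homeobox class (8 tested), which help HOX proteins bind DNA, 1 was higher and 2 were lower in DKD (2 and 3 with the block). PBX2 fell by 0.40 (SE 0.06, adjusted p = 7.73e-04), from 107 ± 3.03 to 80.2 ± 3.87 CPM (SD, n = 3) in untreated cells. PBXIP1, which encodes a protein that binds PBX factors, rose with TNFα, by 1.46 in CTL and 1.84 in DKD cells (adjusted p = 0.00182 and 4.16e-04), from 13.7 ± 1.44 to 37.6 ± 4.39 CPM in CTL. Of 28 Polycomb genes, all tested, 1 was higher and 1 lower, and with the block 2 were higher and 8 lower. BMI1, a subunit of the canonical repressive complex, was higher by 0.67 (SE 0.09, adjusted p = 6.99e-04), and PCGF6, a subunit of a variant complex, fell by 1.13 (SE 0.11, adjusted p = 5.83e-05). Of 23 trithorax and other HOX activators (18 tested), 2 were higher, PSIP1 by 0.51 and RXRA by 0.51, and 0 lower. With the block 3 were higher and 3 lower. The list medians for the knock-down were -0.09 (cofactors), -0.05 (Polycomb) and -0.07 (activators), against 0.01 for all genes.

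Of 32 other homeobox genes of the same ANTP class (15 tested), 5 were higher and 1 lower in DKD averaged over treatments (5 and 2 with the block), against the same 8.49% and 6.04% of all genes. TLX1, a leukaemia-linked homeobox gene, rose from 0.785 ± 0.121 to 2.60 ± 0.188 CPM untreated and from 0.501 ± 0.148 to 2.49 ± 0.391 with TNFα, an average log2 difference of 2.01 (SE 0.17, adjusted p = 3.04e-05). HHEX, which takes part in liver development, was higher by 0.95 in DKD and fell by 0.83 with TNFα in CTL cells (adjusted p = 3.1e-04 and 0.0250). DLX1 and DLX2, which lie about 4 Mb from HOXD on chromosome 2, were higher by 0.63 and 0.62 (adjusted p = 0.0124 and 0.00427). PDX1, the pancreas and duodenum factor, was higher by 0.77 and MSX1 fell by 0.83. The noncoding RNAs of the HOX clusters were not analysed here.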

How the data were processed

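RNA was sequenced from 12 HepG2 libraries. The authors deposited estimated counts per gene symbol, as whole numbers. The submitters' processing notes name Salmon 0.14.0, CASAVA 1.7, DESeq2 and the genome GRCh38/hg38. Annotation, strand setting and the step from transcripts to genes: not given in the sources used here. The deposited normalised values were not used. Library totals ran from 30955080 to 42094144 counts, so that 1 count was worth 0.0238 to 0.0320 CPM. Replicates differed beyond sampling noise, with a chi-square of 12.2 to 141 per degree of freedom.

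edgeR 4.0.16 in R 4.3.3 fitted 1 mean per group to all 12 libraries (TMM factors, filterByExpr with a minimum count of 10 and a minimum total of 15, quasi-likelihood test, 8 residual degrees of freedom). Benjamini-Hochberg adjustment ran over the 16118 genes tested, and genes were called at an adjusted p under 0.05. SE is the log2 fold change divided by the root of the F statistic. Contrasts were knock-down and TNFα effects in each condition, their averages and the interaction. Alternatives were RLE factors, DESeq2 1.42.0, no filter, only the groups compared, a replicate block, each library left out, and both DKD replicate 1 libraries left out.

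Same-numbered libraries of different groups deviated together in all 18 pairs (r 0.193 to 0.695, and -0.544 to 0.311 for differently numbered ones). Much of this contrast sets replicate 1 against replicates 2 and 3. Replicate 2 with replicate 3 gave r of 0.039 to 0.311, which overlaps the 0.193 to 0.472 of same-numbered pairs of those replicates. The block uses the numbers in the labels, and whether they pair the samples is not stated there. Counts were also simulated for the untreated knock-down contrast (15917 genes). Recovered were 16 of 100 genes changed 1.5-fold and 71 of 100 changed 3-fold, with 3 unchanged genes called. The simulated libraries carried no difference by replicate number, unlike the real ones. They therefore do not show how many false calls the real libraries give.

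Named HOX genes are those called in any contrast or with a mean of at least 10 CPM, given in every library; others are given by range and count, or were named after their values were seen (HOXC9 by library, TTN, CCDC141). Of the other lists, up to 4 called genes with the smallest p were eligible, and PDX1 and MSX1 were named beyond that limit. One HOX gene is counted but not reported here by name. Members and lists were chosen with earlier results of these data known. Exon lengths and overlaps are from GENCODE 29, promoters and gene positions from RefSeq on GRCh38; 15009 of the 16118 tested genes were placed by symbol or synonym. The medians by chromosome and neighbourhood, the test by replicate number, the order of genes within libraries and the counts without HOXD3 were added after the data were seen.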

Additional observations from a re-analysis of the deposited data

How the results depend on the processing

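Counts of HOX genes called are given with the count over all genes in brackets, where the main model tested 16118. For the knock-down without TNFα the main model called 2 (803). No filter gave 1 (667), only the groups compared 0 (332), and leaving out both DKD replicate 1 libraries 1 (1384). Leaving out each library gave 0 to 1 (423 to 920). For the knock-down with TNFα it called 3 (1005). The replicate block gave 5 (3133), HOXD3 among them, and single libraries gave 2 to 3. For the knock-down average the main model called 5 (2342), HOXD3 among them, and single libraries gave 3 to 4. The runs that gave 3 called 1679 to 2062 of all genes. For TNFα in CTL cells it called 1 (423). DESeq2 gave 2 (1015), the block 3 (2037), only the groups compared 2 (691), and both DKD replicate 1 libraries out 3 (1400). Single libraries gave 0 to 2, with 0 (149) without CTL untreated replicate 3. For TNFα in DKD cells it called 2 (289). No filter gave 1 (244), only the groups compared 0 (41), and both DKD replicate 1 libraries out 1 (466). Single libraries gave 0 to 3, and the runs that gave 0 or 1 called 127 to 357 of all genes. For the TNFα average it called 3 (1163), the block gave 5 (3414) and single libraries 2 to 4. The interaction stayed at 0 under every alternative run. The test by replicate number called 6 (7496), and the CTL libraries alone gave 3 (3386). Beside the calls named with it in the text, the replicate block changed no call of a HOX gene.

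Signs changed only for values that were not called. With both DKD replicate 1 libraries out, the knock-down value of HOXA3 became -0.15 untreated and -0.054 on average, the HOXA4 interaction 0.035, the TNFα value in DKD cells 0.0028 for HOXA5 and 0.0106 for HOXA6, and the knock-down value of HOXD1 with TNFα 0.11. Leaving out single libraries, HOXA3 ran from -0.141 to 0.142 (untreated) and -0.0016 to 0.142 (average) for the knock-down and -0.0211 to 0.279 for the interaction. The HOXA4 interaction ran from -0.209 to 0.0124, and the knock-down value of HOXD1 from -0.0617 to 0.385 untreated, -0.247 to 0.103 with TNFα and -0.0817 to 0.162 on average. HOXD4 was called higher in DKD with TNFα and on average under every alternative run. Cluster sums moved by less than their SD under RLE factors or library totals alone. With 3 libraries in a group, leaving any library out always moves the mean by less than the SD, so that run cannot show whether the sums are stable. Depth limits what can be said of the 20 HOX genes that did not pass the filter.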

Other observations

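Levels of some HOX genes differed by replicate number, in a test chosen after the data were seen. Replicate 1 of the 4 groups was compared with replicates 2 and 3, with the groups and the other numbers in edgeR's model. Of the 18 tested HOX genes 6 were called, a smaller share than the 46.5% of all genes. HOXC6 had 0.328 to 0.658 CPM in the 4 replicate 1 libraries and 0.993 to 1.49 in the other 8, with no overlap (log2 -1.33, SE 0.20, adjusted p = 6.57e-04). Its neighbour HOXC4 had 0.0729 to 0.195 against 0.244 to 0.608 CPM (log2 -1.55, SE 0.34, adjusted p = 0.00440). HOXA10 fell by 0.68 in replicate 1 with overlapping libraries. HOXC10 went the other way, with means of 0.797 CPM in replicate 1 and 0.317 in the others (log2 1.30, SE 0.28, adjusted p = 0.00386), and HOXA3 was higher by 0.23. In the CTL libraries alone 3 of 16 tested HOX genes were called (21.9% of all genes), HOXC6 and HOXC10 among them. In the DKD libraries alone 6 of 17 were (47.3%). The labels do not say what the replicate numbers stand for. HOXC4 and HOXC6 share exons in GENCODE 29, which cover 17.8% of the HOXC4 exon bases, so their counts are not independent.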
